A study of Mus musculus with 6 samples.

Results

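The genes described here are those named for the proteins of the cytosolic ribosome. They were taken from the deposited expression table by symbol, as the Rpl, Rplp, Rps and Rpsa genes together with their named paralogs, and symbols with a pseudogene suffix or a model name were left out. By identifier, GENCODE M21 lists 84 of them as protein coding and 3, Rpl6l, Rpl32l and Rps4l, as processed pseudogenes, 1 of these transcribed. The table holds 87 such genes among 55411 annotated genes, 54 of the large subunit and 33 of the small subunit, spread over 19 chromosomes with 14 of them on chromosome 7. Fau, Rack1 and Rps27rt were listed beside them, since their symbols fall outside the rule, and their values are given separately.

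RNA-seq of polyadenylated RNA from hippocampus was carried out for a study of paternal exposure to clothianidin (CLO), an insecticide of the neonicotinoid class, whose targets are nicotinic receptors for acetylcholine. The 3 CLO libraries belong to the arm in which male C57BL/6N mice received CLO at 50 mg/kg/day, described as a dose with no observed adverse effect, and the 3 Ctrl libraries to the vehicle arm. The extraction protocol names offspring as the source of the hippocampi, whereas the design text speaks of the dosed males, and the libraries are taken here as offspring. The labels give no sex, age, litter or sire and no preparation batch, so p-values speak only to the spread among these 6 libraries, and nothing shows that the 3 of a group came from separate litters.

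A ribosome joins a large subunit, which forms peptide bonds and holds the tunnel through which the new chain leaves, to a small subunit, which reads the messenger RNA. Each carries its own set of proteins on ribosomal RNA, and the proteins are made in matched amounts. Their messenger RNAs belong to the terminal oligopyrimidine (TOP) class, which starts with a run of pyrimidines and is translated under the control of mTOR complex 1. In neurons, ribosomal protein messenger RNAs are also carried into axons and dendrites.

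The sequences around the starts of several of these genes are shown first, because TOP messenger RNAs are defined by the pyrimidine run at their start. Of the 87 genes, 65 had a promoter window in the RefSeq table of GRCm38.p6, taken at the most upstream annotated start. The lines below give 30 bases before and 30 bases from that start, on the gene's own strand. They are from 4 genes of each subunit among those with the smallest unadjusted p. Capitals mark CTTTC and TCTTT, which can overlap each other.
Rplp0 (chr5:115559437-115559496, plus strand): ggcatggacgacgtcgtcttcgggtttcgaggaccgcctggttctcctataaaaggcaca
Rpl13a (chr7:45128716-45128775, minus strand): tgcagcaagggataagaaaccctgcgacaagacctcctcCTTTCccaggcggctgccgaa
Rpl7a (chr2:26910777-26910836, plus strand): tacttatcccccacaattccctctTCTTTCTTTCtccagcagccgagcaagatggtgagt
Rpl22l1 (chr3:28805478-28805537, plus strand): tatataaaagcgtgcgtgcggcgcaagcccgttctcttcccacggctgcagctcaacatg
Rps27l (chr9:66946056-66946115, plus strand): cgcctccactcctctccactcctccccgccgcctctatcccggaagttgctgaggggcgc
Rps7 (chr12:28635924-28635983, minus strand): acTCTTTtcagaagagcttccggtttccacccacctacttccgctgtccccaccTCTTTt
Rps27 (chr3:90213619-90213678, minus strand): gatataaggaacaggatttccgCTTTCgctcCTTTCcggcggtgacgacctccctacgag
Rps16 (chr7:28350659-28350718, plus strand): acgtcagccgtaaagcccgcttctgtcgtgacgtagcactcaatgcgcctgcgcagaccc

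Of these 8 windows, 4 held a marked run, those of Rpl13a, Rpl7a, Rps7 and Rps27. Across the 65 windows, CTTTC on the gene's own strand within 30 bases either side of the start was found in 20 (30.8%), against 7.83% of the 27025 windows in the table. TCTTT was found there in 15 (23.1%), against 7.03%, and 1 or the other in 23 (35.4%), against 12.1%. The large subunit had CTTTC there in 15 of 41 windows and the small subunit in 5 of 24. Over the full 300 bases and on either strand, CTTTC was in 78.5% of member windows against 57.2% of all, and CCGGAAG, the core of sites bound by ETS-family factors, in 38.5% against 9.14%. TATAAA was in 12.3% against 14.2%, and CACGTG, the E-box bound by Myc, in 7.69% against 7.24%. A match describes the letters in these windows and was not tested as a site. A window with neither CTTTC nor TCTTT can still hold another pyrimidine run, as that of Rpl22l1 does. The shares are therefore no count of TOP messenger RNAs.

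Counts assigned to annotated genes were 25053948 to 26603386 in the Ctrl libraries and 19502748 to 21041621 in the CLO libraries, so each CLO library was shallower than each Ctrl library. All 14 genes listed as hippocampal neuron markers were detected, with a summed level of 6002 to 8542 CPM in Ctrl and 6985 to 7687 CPM in CLO. The largest parts of that sum were Camk2a, Slc17a7 and Snap25, at means of 2880, 1906 and 1535 CPM in Ctrl. These mark neurons more widely, so the sum is no measure of hippocampal neurons alone. CPM is counts scaled to a common library total with TMM factors (trimmed mean of M-values), and TPM also divides by the deposited gene length. Ctrl 1 and Ctrl 2 stood apart by transcripts of spermatids: Prm2, a protamine gene, had 102 and 23 counts there and 0 in the other 4 libraries.

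The order of the genes by level was nearly the same in every library, with rank correlations of TPM between libraries of 0.984 to 0.997. Rplp1, which encodes a protein of the acidic stalk that recruits translation factors, had the highest mean TPM of all members. It was at 5014, 3409 and 3555 TPM in Ctrl 1, 2 and 3 and at 4232, 5127 and 4577 TPM in CLO 1, 2 and 3. Its lowest library lay above the highest library of the next gene, Rps15, a protein of the small subunit's head, at 1860 to 2538 TPM. Rps15 exceeded Rps29, another head protein at 1329 to 1925 TPM, in all 6 libraries, although their ranges overlapped. Rps3a1 followed at 1212 to 1553 TPM and Rps21 at 1072 to 1541 TPM. In the large subunit, Rplp1 was followed by Rpl41, one of the shortest known proteins, at 934 to 1453 TPM and by Rpl38, the gene mutated in Tail-short mice, at 976 to 1381 TPM. The ranges of Rpl41 and Rpl38 overlapped, and Rpl41 was the higher in 4 of 6 libraries. The order depended on the length used: by CPM per kb of spliced M21 length, Rplp1 and Rps15 stayed first and second, Rps3a1 went from rank 4 to rank 24, Rpl38 from 7 to 12 and Rps14 from 12 to 4.

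The median tested member was at 319 TPM in the large subunit (quartiles 186 and 521) and 476 TPM in the small subunit (quartiles 233 and 722). The higher median of the small subunit was also seen with each count divided by the spliced length of the GENCODE M21 transcript, at 528 against 368 CPM per kb. The 5 most abundant members by CPM held 14.3% of all member counts and the top 20 held 44.0%. The coefficient of variation over 3 libraries had a median of 16.01% in Ctrl and 8.45% in CLO by TPM, and the reverse order by CPM, 12.2% in Ctrl and 19.2% in CLO.

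Between the groups, nearly all ribosomal protein genes had higher fitted values in CLO, by a small amount, and none passed the test. Of 83 members with enough counts to test, 82 had a log2 fold change above 0, where 48.2% of all 16129 tested genes did. Their median log2 fold change was 0.27 (quartiles 0.21 and 0.34), against -0.01 over all genes. No member and no gene passed the quasi-likelihood test of edgeR after Benjamini-Hochberg adjustment, and the smallest adjusted p among members was 0.291. At an unadjusted p under 0.05, 10 of 83 members were higher in CLO, against 6.18% of all genes, and 0 were lower, against 7.26%. DESeq2 passed 204 of all genes (1.26%) and 0 members, with 82 of 83 members higher against 47.9% of all genes. Limma-voom passed 0 genes, with 82 of 83 members higher against 49.5%. Because the RNA is from bulk tissue, a different number of cells of a type and a different amount of RNA per cell cannot be told apart.

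**Figure D1:**
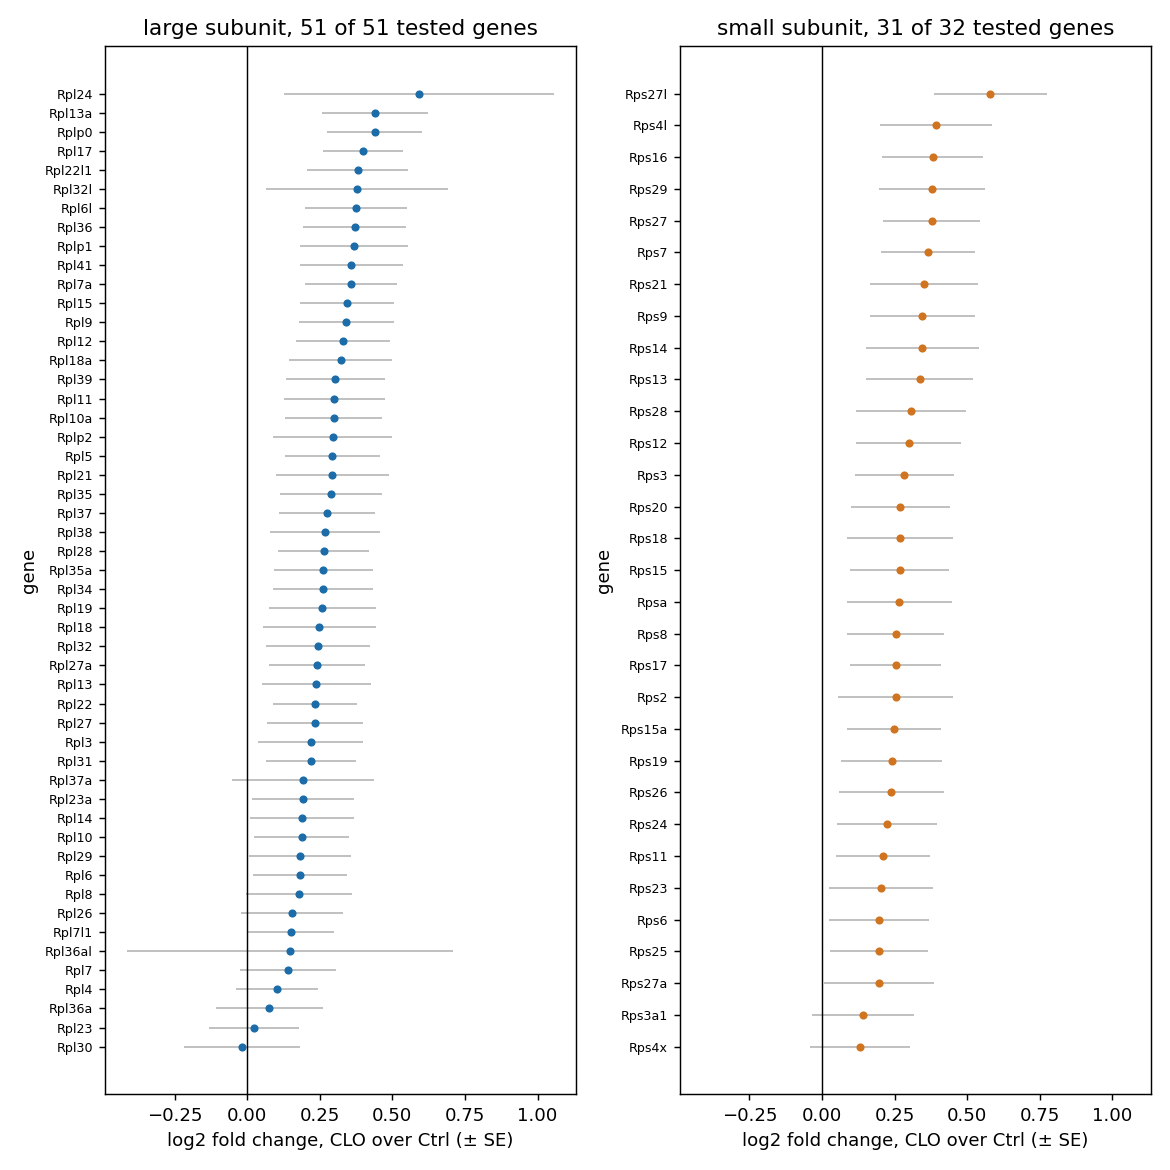
Log2 fold change of CLO over Ctrl (x axis) for each tested member of the large subunit (51 genes) and of the small subunit (31 of 32 genes), as points with the standard error as bars (n = 3 libraries per group). Points lie to the right of 0 for every gene shown but Rpl30, at -0.02, and no gene passed the adjusted threshold.

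The members took 3.15%, 2.48% and 2.53% of annotated counts in Ctrl 1, 2 and 3 and 2.63%, 3.39% and 3.45% in CLO 1, 2 and 3. Wilson 95% intervals, which cover counting error only, were narrow at this depth, such as 3.1476% to 3.1613% for Ctrl 1. CLO 2 and CLO 3 were the highest libraries, CLO 1 lay within the Ctrl range, and Ctrl 1 lay above both other Ctrl libraries, so the groups overlapped. The group means were 2.72% ± 0.377 in Ctrl and 3.16% ± 0.459 in CLO (SD, n = 3).

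A like pattern was seen gene by gene. As deviations from each gene's own mean on the log2 CPM scale, the member median was 0.05, -0.25 and -0.19 in Ctrl 1, 2 and 3 and -0.20, 0.27 and 0.34 in CLO 1, 2 and 3. CLO 2 and CLO 3 both exceeded every Ctrl library in 74 of 83 members, where 20.9% of all genes did. CLO 1 lay below both other CLO libraries in 82 of 83 members, where 39.6% of all genes did. It lay below Ctrl 1 in 76, where 50.2% of all genes did. Ctrl 1 exceeded both other Ctrl libraries in 69, where 40.1% of all genes did. Every CLO library exceeded every Ctrl library in 3 of 83 members, Rpl17, Rplp0 and Rps27l, against 7.84% of all genes, and the reverse order occurred in 0, against 6.7%. Without CLO 1 the median log2 fold change of the members was 0.42, and without Ctrl 1 it was 0.37. It was 0.22 without Ctrl 2, 0.24 without Ctrl 3, 0.21 without CLO 2 and 0.18 without CLO 3.

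**Figure D2:**
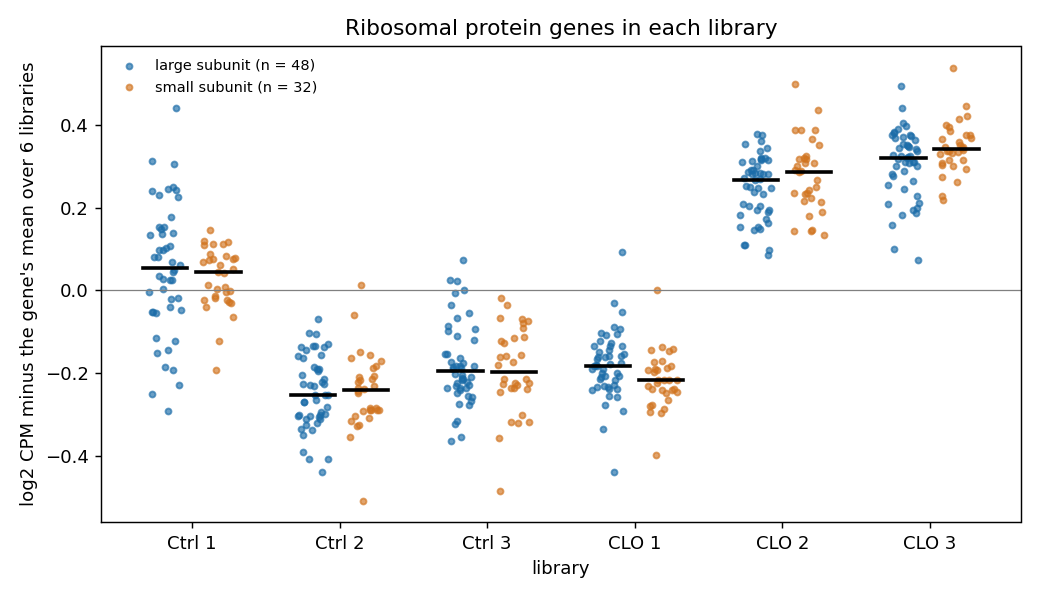
Log2 CPM of the 80 tested members above 5 CPM minus each gene's mean over 6 libraries (y axis) in each library (x axis). There is 1 point per gene, with colours for the subunits and black bars for the medians of the genes drawn. Rpl24, Rpl32l and Rpl36al, of the large subunit, are not drawn. Over all 51 tested large subunit members the medians are 0.06, -0.25 and -0.19 in Ctrl and -0.18, 0.27 and 0.32 in CLO. The small subunit medians follow them library by library.

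Large and small subunit genes had similar values. In the large subunit 50 of 51 members had higher values in CLO (median log2 fold change 0.26), and in the small subunit 32 of 32 did (median 0.27). At an unadjusted p under 0.05 (edgeR), 5 of 51 large and 5 of 32 small subunit members were higher in CLO, against 6.18% of all genes. The summed level of the large subunit was 14870 ± 1636 CPM in Ctrl and 17786 ± 3149 CPM in CLO (SD, n = 3). That of the small subunit was 11938 ± 1198 CPM in Ctrl and 14443 ± 2929 CPM in CLO (SD, n = 3). The ratio of large to small was 1.256, 1.229 and 1.250 in Ctrl and 1.280, 1.212 and 1.217 in CLO, a mean of 1.245 ± 0.0144 against 1.237 ± 0.0378 (SD, n = 3). The ranges of this ratio overlapped, and its log2 value differed by -0.01 between the groups. By CPM, Ctrl 1 was the highest library in 5 members of the large subunit and in 0 of the small, against 19.6% of all genes.

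On the TPM scale the difference was smaller. Summed TPM of the members was 46929, 35981 and 35720 in Ctrl and 39540, 46068 and 43990 in CLO, so that Ctrl 1 was the highest library and the groups overlapped. The means were 39543 ± 6397 TPM in Ctrl and 43199 ± 3335 TPM in CLO (SD, n = 3). Mean TPM was higher in CLO for 75 of 83 members, with a median log2 ratio of 0.12, and Ctrl 1 was the highest library in 43 members. Every CLO library exceeded every Ctrl library by TPM in 6 members, Rpl15, Rpl17, Rpl7a, Rpl9, Rplp0 and Rps27l, against 5.05% of all genes. In limma on log2(TPM + 1), 76 of 83 were higher with a median of 0.13, while the median of all genes was -0.10. Shorter genes had higher values in CLO across the whole table, with a rank correlation of log2 fold change with deposited length of -0.51 over all tested genes, which share these 6 libraries, and of -0.16 over the 83 members. The median deposited length was 1830 bases for members and 4237 bases for all genes. With each library's trend on length removed, 63 of 83 members were higher, against 49.4% of all genes, and the member median was 0.11.

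**Figure D3:**
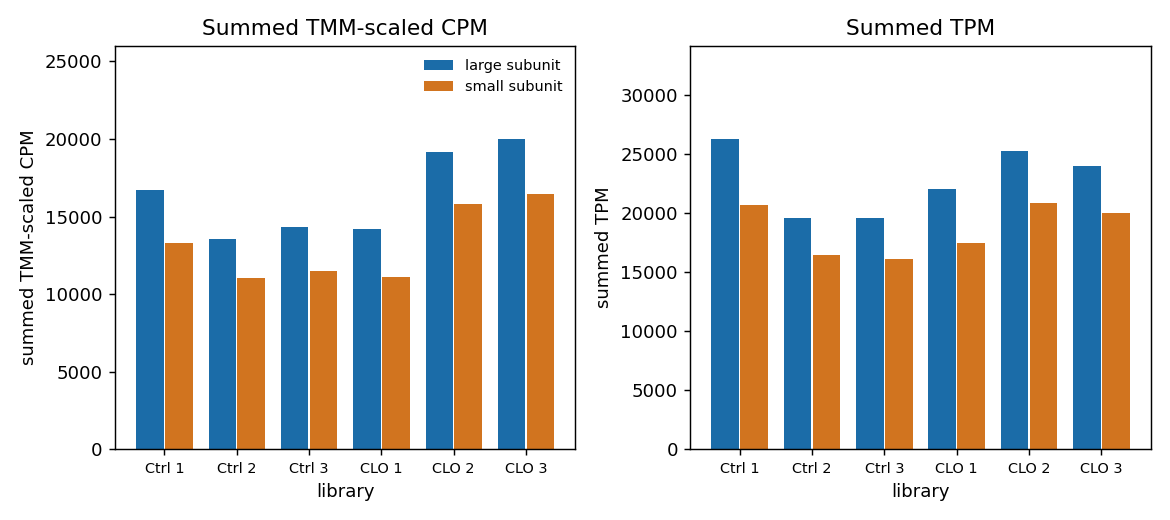
Summed level of the large and small subunit genes in each library (x axis) as TMM-scaled CPM and as TPM (y axes, bars from 0). By CPM the highest libraries are CLO 2 and CLO 3 at 35001 and 36426 over both subunits, and by TPM the highest is Ctrl 1 at 46929.

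Among large subunit genes, the smallest p belonged to Rpl17, whose protein lines the exit tunnel. It was at 189, 205 and 195 CPM in Ctrl 1, 2 and 3 and at 240.0, 279.6 and 256 CPM in CLO 1, 2 and 3. Each CLO library lay above each Ctrl library. The log2 fold change of Rpl17 was 0.40 ± 0.14 (SE), and its adjusted p (edgeR quasi-likelihood, Benjamini-Hochberg) was 0.295. Among the 80 members above 5 CPM, Rpl17 had the widest range of differences from the family's library pattern: its deviation from the family's median was -0.30 (log2) in Ctrl 1 and 0.29 in CLO 1. The gene overlaps 3 small RNA genes on its own strand and has 11 named pseudogene rows holding 139676 counts in all, so its count is uncertain.

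Rplp0 encodes the scaffold of the acidic stalk, to which the Rplp1 and Rplp2 proteins bind, and lies on chr5:115697526-115701786 of the plus strand in GRCm39. It was at 403, 362 and 397 CPM in Ctrl and at 411, 581 and 582 CPM in CLO. The groups did not overlap, although CLO 1 exceeded the highest Ctrl library by little. The log2 fold change of Rplp0 was 0.44 ± 0.16 (SE), and its adjusted p (edgeR quasi-likelihood, Benjamini-Hochberg) was 0.32. Its partners had wider ranges. Rplp1 was at 839 ± 152 CPM in Ctrl and 1083 ± 208 CPM in CLO, and Rplp2 at 298 ± 76.3 CPM and 365 ± 74.2 CPM (SD, n = 3).

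Rpl7a was at 137, 153 and 158 CPM in Ctrl and at 157, 199.8 and 218 CPM in CLO, a log2 fold change of 0.36 ± 0.16 (SE). CLO 1 lay between Ctrl 2 and Ctrl 3, so the groups overlapped. Rpl13a, which in human cells can leave the ribosome to repress inflammatory messenger RNAs, was at 23.8 ± 1.85 CPM in Ctrl and 32.3 ± 7.24 CPM in CLO (SD, n = 3). Its log2 fold change was 0.44 ± 0.18 (SE). It overlaps 6 genes on its strand, among them several small nucleolar RNA genes and Gm45713, a model gene with 0 counts in every library. The count of Rpl13a is therefore uncertain. Rpl30, whose yeast counterpart represses the splicing of its own transcript, was the only tested member with a log2 fold change below 0. It was at 229, 157 and 180.2 CPM in Ctrl and at 136, 205 and 219 CPM in CLO, a log2 fold change of -0.02 ± 0.20 (SE). Ctrl 1 was the highest library for Rpl30 and CLO 1 the lowest. Its sign differed with the libraries used, from -0.14 to 0.17 when each was left out in turn.

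In the small subunit, Rps27l, a paralog of Rps27 that p53 induces in human cells, had the smallest p of all members. It lies on chr9:66853368-66856798 of the plus strand in GRCm39. It was at 12.6, 9.94 and 9.07 CPM in Ctrl and at 12.7, 15.9 and 18.5 CPM in CLO. The lowest CLO library was barely above the highest Ctrl library. The log2 fold change of Rps27l was 0.58 ± 0.20 (SE), and its adjusted p (edgeR quasi-likelihood, Benjamini-Hochberg) was 0.291. The next by p were more abundant genes at which CLO 1 lay within the Ctrl range. Rps7, whose protein binds Mdm2 in human cells, was at 419, 387 and 408 CPM in Ctrl and at 413, 588 and 563 CPM in CLO. Rps27 was at 312, 273 and 257 CPM in Ctrl and at 288, 416 and 391 CPM in CLO. Rps16, whose tail contacts the transfer RNA in the P site, was at 339 ± 33.3 CPM in Ctrl and 442 ± 90.2 CPM in CLO (SD, n = 3). These 3 genes had log2 fold changes of 0.37 to 0.38. The smallest value in the small subunit was 0.13 ± 0.17 (SE), for Rps4x.

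**Figure D4:**
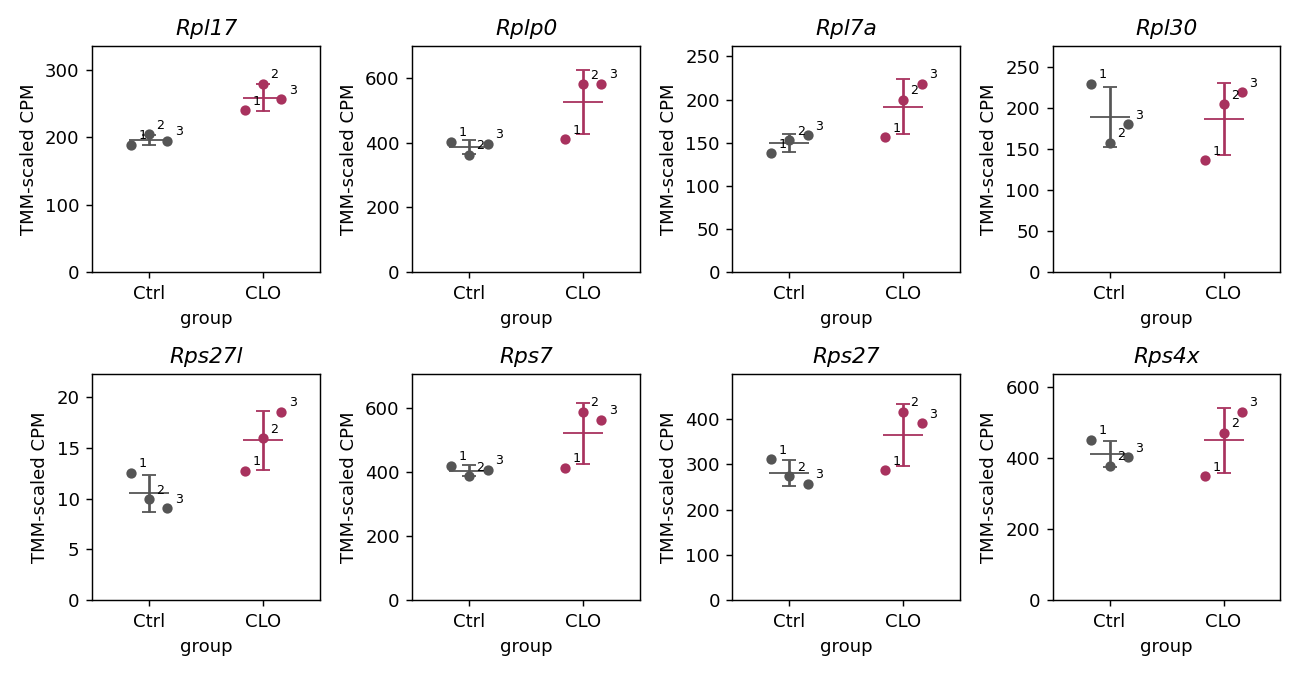
TMM-scaled CPM (y axis) of 8 members in the 3 Ctrl and 3 CLO libraries, numbered by replicate, with the mean and SD as bars. Among the members drawn, Rpl17, Rplp0 and Rps27l are those whose groups do not overlap. Rpl30 has its highest library in Ctrl 1, and CLO 1 lies at or near the Ctrl values in most panels.

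Several members have a paralog with its own tissue range, and the pairs differed widely in level. Rpl22l1 was above its parent by TPM, at 135% ± 9.52 of Rpl22 in Ctrl and 148% ± 17.5 in CLO (SD, n = 3). By library it was at 86.3, 72.3 and 78.7 CPM in Ctrl and at 78.4, 115 and 116 CPM in CLO, with a log2 fold change of 0.38 ± 0.17 (SE), and Rpl22 had 0.23 ± 0.14 (SE). The ranges of the ratio overlapped, as CLO 1 was at 128%. The order of this pair rests on the deposited lengths of 1989 and 3574 bases, and by spliced M21 length Rpl22 was the higher, at 242 against 165 CPM per kb. By TPM, Rps4l was at 19.6% ± 2.39 of Rps4x in Ctrl and 23.8% ± 3.68 in CLO, Rpl7l1 at 10.9% ± 0.151 and 11.1% ± 0.956 of Rpl7, and Rps27l at 4.77% ± 0.344 and 5.54% ± 0.591 of Rps27 (SD, n = 3). Rpl6l was at 46.0 ± 5.43 CPM in Ctrl and 59.7 ± 11.97 CPM in CLO, beside Rpl6 at 374 ± 29.2 CPM and 424 ± 73.9 CPM (SD, n = 3). These CPM are not divided by the deposited lengths of 871 and 3140 bases, and mean TPM was 136 for Rpl6l and 285 for Rpl6. Rpl6l is listed as a processed pseudogene, and 84.4% of the 31-base words of its GENCODE M21 transcripts also occur in other genes. Its count is therefore uncertain.

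Rpl3l, Rpl10l, Rpl36al and Rpl39l were near 0. Rpl3l, a striated-muscle form of Rpl3 (834 ± 91.7 CPM in Ctrl and 971 ± 217 CPM in CLO, SD, n = 3), had 10, 7 and 0 counts in Ctrl and 6, 3 and 5 in CLO. Rpl10l, a testis form of the X-linked Rpl10 (338 ± 16.5 CPM and 385 ± 73.2 CPM), had 2 counts in Ctrl 1 and 0 in the other 5 libraries. Rpl36al, beside the X-linked Rpl36a (129 ± 28.4 CPM and 136 ± 21.2 CPM), had 11, 3 and 12 counts in Ctrl and 5, 7 and 10 in CLO. Rpl39l, the form of the exit-tunnel protein Rpl39 known from mouse spermatogenic cells, had 17, 4 and 1 counts in Ctrl and 0 in all 3 CLO libraries. Its pooled Ctrl level was 5.59-fold above a floor of 3 counts over the 3 CLO libraries together, with no error taken for Ctrl. Ctrl 3 alone, at 0.0384 CPM, lay below that floor of 0.0497 CPM. As 17 of the 22 Ctrl counts were in Ctrl 1, the ratio for Rpl39l without that library was 1.90-fold. Its parent Rpl39 was at 128 ± 16.5 CPM in Ctrl and 158 ± 29.0 CPM in CLO (SD, n = 3).

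Rpl39l was too low for the filter of the test. With no filter on low counts, 2.56% of 27303 genes passed and Rpl39l was the only member that did, with an adjusted p (edgeR quasi-likelihood, Benjamini-Hochberg) of 0.0115 and a fitted log2 fold change of -5.72 that depends on the prior count. In that fit 83 of 87 members were higher in CLO, against 44.2% of all genes. Its counts followed those of spermatid genes. Tnp2, a transition protein gene, had 56 and 22 counts in Ctrl 1 and Ctrl 2, Prm1 had 54 and 28, and Ldhc had 45 and 27, with at most 1 count of any of the 3 in the other 4 libraries. The 11 spermatid genes summed to 25.3 to 46.4 CPM in Ctrl and 20.5 to 26.4 CPM in CLO, most of it Odf2, and their part in the Rpl39l counts was not tested. Over the GENCODE M21 transcripts of Rpl39l, 2.05% of its 31-base words also occur in another gene. The coding sequences are only part of the spliced lengths, which are 612 bases for Rpl39 and 550 bases for Rpl39l. They are 156 bases each and differ at 23, in capitals, with a longest identical run of 38 bases, an identity of 85.3%.
Rpl39 (chromosome X, minus strand): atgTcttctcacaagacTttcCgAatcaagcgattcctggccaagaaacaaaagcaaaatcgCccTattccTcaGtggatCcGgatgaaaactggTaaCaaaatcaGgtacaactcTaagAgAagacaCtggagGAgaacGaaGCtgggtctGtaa
Rpl39l (chromosome 16, plus strand): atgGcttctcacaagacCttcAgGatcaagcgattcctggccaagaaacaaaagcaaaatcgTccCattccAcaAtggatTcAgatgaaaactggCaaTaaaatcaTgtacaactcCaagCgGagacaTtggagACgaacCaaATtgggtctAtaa

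Rps27l, the member with the smallest p, and its parent Rps27 are further apart. They differ at 61 of 255 bases, an identity of 76.1%, and the longest identical run is 11 bases.
Rps27 (chromosome 3, minus strand): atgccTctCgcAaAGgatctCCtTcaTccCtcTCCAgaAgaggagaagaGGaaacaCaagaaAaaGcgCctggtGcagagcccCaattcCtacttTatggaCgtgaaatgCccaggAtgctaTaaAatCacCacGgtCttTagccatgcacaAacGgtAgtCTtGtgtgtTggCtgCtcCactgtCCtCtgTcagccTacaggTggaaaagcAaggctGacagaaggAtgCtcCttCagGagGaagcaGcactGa
Rps27l (chromosome 9, plus strand): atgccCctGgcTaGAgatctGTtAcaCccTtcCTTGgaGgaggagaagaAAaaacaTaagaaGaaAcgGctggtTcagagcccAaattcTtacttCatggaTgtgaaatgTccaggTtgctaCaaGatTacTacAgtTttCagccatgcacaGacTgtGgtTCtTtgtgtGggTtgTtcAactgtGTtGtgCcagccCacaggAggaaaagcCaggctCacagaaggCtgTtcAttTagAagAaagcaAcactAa

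Members that every cell is known to use were also near 0. Rps10, a protein of the small subunit's head, had 2, 1 and 0 counts in Ctrl and 0, 2 and 0 in CLO and was not tested. The 4 pseudogene rows named after Rps10 held 14458 counts in all. Rpl24 had 28, 11 and 14 counts in Ctrl and 10, 25 and 26 in CLO. Both overlap a model gene on the same strand, as does Rpl36al, and those 3 model genes had 0 counts in every library. Of the 87 members, 36 overlap a gene on the same strand, and 64 have named pseudogene rows. A low count is therefore no measure of a low level for these genes.

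The family shares much of its sequence with other annotated genes, and genes that overlap a member in place were not left out. A median of 25.3% of a member's 31-base words, read in sense from GENCODE M21 transcripts, also occur in another gene, against 0.449% for all tested genes. The share was highest for Rpl36, at 94.1%, and exceeded 50% in 8 members. The median log2 fold change was 0.26 in the 41 members above the median share and 0.27 in the other 42. Pseudogenes named after a member were higher in CLO in 145 of 146 tested rows (median log2 fold change 0.60) and took 0.439% ± 0.0320 of counts in Ctrl and 0.562% ± 0.0847 in CLO (SD, n = 3). With their counts added to the parent genes, 84 of 84 members were higher, with a median of 0.29.

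Other genes of the translation machinery were read in the same fit, and none passed. Of the 4 ribosomal proteins outside the symbol rule, 4 were higher in CLO, at a median log2 fold change of 0.32. Rack1, a scaffold on the small subunit, was at 269.8, 254 and 277 CPM in Ctrl and at 272, 389 and 388 CPM in CLO, a log2 fold change of 0.39 ± 0.16 (SE). Fau, made as a fusion to a ubiquitin-like protein, had 0.35 ± 0.19 (SE). CLO 1 lay within the Ctrl range for both genes too. Rps27rt was at 40.1 ± 12.8 CPM in Ctrl and 43.4 ± 8.51 CPM in CLO (SD, n = 3), a log2 fold change of 0.11. Mitochondrial ribosomal protein genes, which serve a different ribosome, were higher in 74 of 75 with a median of 0.23.

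Elongation factors and other TOP-type genes were higher in CLO in 15 of 18 (median log2 fold change 0.17), including Eef1b2 at 0.26 and Tpt1 at 0.25. Ribosome biogenesis genes were higher in 17 of 22 with a median of 0.09, including the rRNA processing genes Nop10 at 0.41 and Bop1 at 0.35. Genes for ribosomal RNA transcription were higher in 7 of 12 with a median of 0.12, with Gtf3a, a factor for 5S RNA genes, at 0.31 and Polr1a, the largest RNA polymerase I subunit, at -0.42. A list for mTOR and the control of TOP messenger RNAs, which also holds Myc, Mycn and Mycl, was higher in 6 of 19. Its median was -0.12, with Akt1s1, an mTOR complex 1 inhibitor, at 0.37 and Rictor, of mTOR complex 2, at -0.46. Log2 fold change had a rank correlation of -0.51 with deposited length over all tested genes. The part of length in the values of these lists was not tested.

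**Figure D5:**
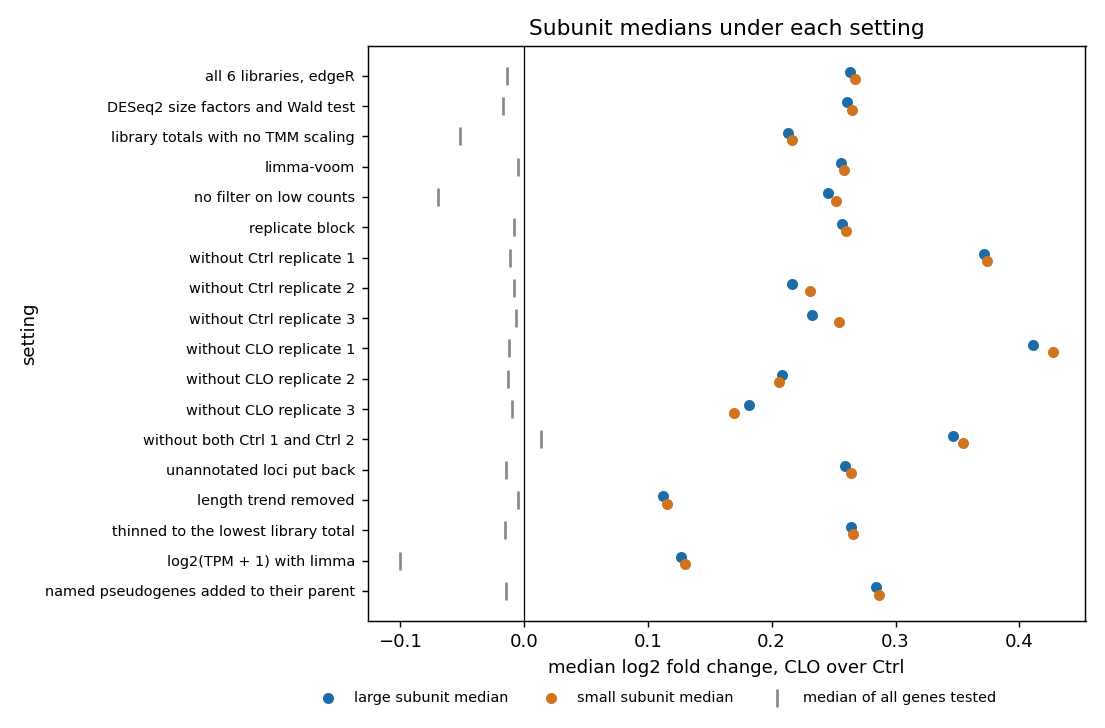
Median log2 fold change of CLO over Ctrl (x axis) for large and small subunit members and for all tested genes under each setting (y axis). Both subunit medians lie above the all-gene median in every setting shown, from about 0.11 with the length trend removed to about 0.42 without CLO 1.

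Other markers differed between the same libraries. Neocortical markers were lower in CLO in 13 of 14 (median log2 fold change -0.50), with summed levels of 523 to 693 CPM in Ctrl and 386 to 546 CPM in CLO. The 7 nuclear-retained RNAs were all lower in CLO, with a median of -1.48 and sums of 337 to 653 CPM in Ctrl and 243 to 369 CPM in CLO. Hippocampal neuron markers were higher in 9 of 14, glial markers in 4 of 12 (4539 to 5490 CPM in Ctrl, 4189 to 5113 CPM in CLO), and meningeal markers in 1 of 10 (109 to 150.4 CPM and 90.7 to 123 CPM). Blood markers summed to 862 to 1328 CPM and 853 to 1378 CPM, and choroid plexus markers to 10.2 to 16.1 CPM and 12.1 to 15.9 CPM. No marker on these lists was at 0 in every library, and the part of any of them in the ribosomal protein values was not tested.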

How the data were processed

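The deposited table of raw read counts per gene was the base of all tests. Per the submitters' processing notes the tools included cutadapt 2.9, HISAT2 2.2.0 and featureCounts 2.6.0 with the build GRCm39. Their options, the annotation release and the treatment of reads with several positions: not given in the sources used here. The deposited TPM table, made by the authors, was recomputed from counts and lengths to within 5e-04. The 1103 rows without a gene annotation (0.640% to 0.780% of counts) stayed out of totals and tests.

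Computed here: filterByExpr, TMM scaling and a robust, two-sided quasi-likelihood test in edgeR 4.0.16 (R 4.3.3) on all 6 libraries with no covariate, with Benjamini-Hochberg adjustment over 16129 genes at a threshold of 0.05. The standard error was taken from the fold change and its F statistic. DESeq2 1.42.0 and voom in limma 3.58.1 were alternatives, along with other scalings, filters, left-out libraries, a length correction and TPM. Scripts were tested on simulated counts. A group with 0 counts was given a floor of 3 counts over its libraries together, for counting error only.

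Members named are the 5 per subunit with the smallest p, the 3 per subunit with the highest TPM, all lower in CLO, all untested or under 10 counts, and listed paralog pairs. From each translation list, the 2 genes with the smallest p were named. Rplp2, Rpl6, Rpl6l, Rpl32l, Rpl36, Rpl24, Rps14, Rpl15, Rpl9, Rps21, Rps27rt and the spermatid genes were named after their values were seen. Some genes that the rule names are not reported here. Members and lists were chosen with earlier results of these data known, so they are described by counts and medians with no test over the list.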

Additional observations from a re-analysis of the deposited data

How the results depend on the processing

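The count of genes past the threshold, 0 of 16129 by edgeR, was 204 with DESeq2, 699 with no filter on low counts, and 0 to 20 when each library was left out in turn (2 without Ctrl 1, 20 without Ctrl 3). Members past the threshold were 0 under every setting except no filter, which passed 1, Rpl39l. The member median of 0.27 ranged from 0.18 to 0.42 when each library was left out, with 79 to 83 members higher in CLO. Over the same runs the large subunit median was 0.18 to 0.41 and the small 0.17 to 0.43, with 47 to 51 and 31 to 32 members higher, the difference of medians -0.02 to 0.01, and the log2 ratio of summed levels -0.04 to 0.00. Without both Ctrl 1 and Ctrl 2 the member median was 0.35. Without TMM it was 0.21, and with libraries thinned to the lowest total 0.26. Restricted, after seeing the data, to members with no gene on the same strand, 48 of 48 were higher (27 large, 21 small). Of 455 values of the 27 named, tested members under these settings, 20 differed in sign. In each of those the test was not passed, and the cause was not tested.

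Replicate numbers are shared between groups, but nothing in the labels pairs them. Same-numbered libraries deviated together with correlations of -0.157, -0.0948 and 0.277, so they were not taken as pairs. With the replicate number as a block, 0 genes passed, 82 of 83 members were higher and the median was 0.26. The statements on Rpl10l, Rpl39l, Rpl3l and Rps10 are limited, because their values rest on a few counts.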
